A study of Mus musculus with 12 samples.

Results

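The 47 genes described here encode the machinery that copies DNA and the regulators that open S phase. They were measured by RNA-seq of CCN6KOT cells, a primary mouse breast tumour line labelled spindle metaplastic. The genes were chosen by name, and each of the 47 was found among the 55492 features of the count table and was among the 15052 genes with enough counts to be tested. Total RNA came from 12 libraries, 3 in each of 4 groups. DNTCF4_EZH2 cells received lentivirus with DNTCF4, a dominant negative form of the Wnt transcription factor TCF4, together with EZH2, the methyltransferase of Polycomb repressive complex 2. DNTCF4_SET cells received lentivirus with DNTCF4 and a sequence labelled SET, which the labels do not expand. DNTCF4 cells received the lentivirus with DNTCF4, and their titles add the word Vector. Vector cells received a control lentivirus, and PPGS in their titles is left unexplained. Cells of the 4 groups were grown in DMEM/F12 with 10% serum and were selected with puromycin. The labels give no time after transduction, do not say which promoter drives the constructs and do not say whether libraries of 1 group are separate cultures. The p-values therefore reflect a spread that may be technical. The study set DNTCF4 cells against cells without the construct and against cells given a second protein as well, which the series' design text names as a rescue.

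DNA replication is prepared in G1, when the origin recognition complex, CDC6 and CDT1 load the ring-shaped MCM2-7 helicase onto DNA. At the start of S phase CDC45 and the GINS complex join the ring and turn it into the active CMG helicase. Primase and DNA polymerases alpha, delta and epsilon then copy the strands, RFC loads the sliding clamp PCNA, and RPA coats the single strands. E2F transcription factors, released when cyclin-dependent kinases phosphorylate the retinoblastoma protein, are known to activate most of these genes. In Wnt signalling, TCF4 and beta-catenin activate targets that include the gene of cyclin D1, which acts upstream of E2F.

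The promoters of 6 members are printed to show windows with a match to the E2F site and windows with none. They were picked from members that differed between groups and do not stand for the rest. RefSeq windows of 250 bases before to 50 bases after a start were found for 38 of the 47 members, on build GRCm38.p6. They were searched on both strands for 4 forms of the E2F site, TTTCCCGC, TTTGGCGC, TTTCGCGC and TTTGCCGC, which may overlap each other and are in capitals below. Orc1 and Cdc6 with 1 match each, and Mcm7 with 2, were higher in DNTCF4 than in Vector. Another window of Mcm7, chr5:138171217-138171516, held no match and is not printed. Mcm6 with 3 matches, a pair of them overlapping, was lower in DNTCF4_EZH2 and DNTCF4_SET than in DNTCF4. Rfc5 and Rrm2, with no match, were lower in DNTCF4 than in Vector. The windows are chr4:108579204-108579503 on the plus strand for Orc1, chr11:98907901-98908200 on the plus strand for Cdc6 and chr5:138171834-138172133 on the minus strand for Mcm7. Those of the other 3 are chr1:128359656-128359955 on the minus strand for Mcm6, chr5:117388974-117389273 on the minus strand for Rfc5 and chr12:24708004-24708303 on the plus strand for Rrm2. Each is written 5′ to 3′ on the gene's own strand.
Orc1: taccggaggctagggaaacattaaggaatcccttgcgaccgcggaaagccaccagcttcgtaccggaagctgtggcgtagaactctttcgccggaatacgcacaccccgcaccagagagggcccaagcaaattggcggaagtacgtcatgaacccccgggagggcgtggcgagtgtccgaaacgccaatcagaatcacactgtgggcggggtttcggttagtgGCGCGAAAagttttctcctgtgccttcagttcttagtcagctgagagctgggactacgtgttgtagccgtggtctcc
Cdc6: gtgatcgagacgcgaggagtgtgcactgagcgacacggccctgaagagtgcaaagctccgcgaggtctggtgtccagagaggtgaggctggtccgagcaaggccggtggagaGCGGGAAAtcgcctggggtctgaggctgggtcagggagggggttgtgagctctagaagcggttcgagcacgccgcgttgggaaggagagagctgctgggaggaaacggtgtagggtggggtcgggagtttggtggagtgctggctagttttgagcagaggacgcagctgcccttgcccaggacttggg
Mcm7: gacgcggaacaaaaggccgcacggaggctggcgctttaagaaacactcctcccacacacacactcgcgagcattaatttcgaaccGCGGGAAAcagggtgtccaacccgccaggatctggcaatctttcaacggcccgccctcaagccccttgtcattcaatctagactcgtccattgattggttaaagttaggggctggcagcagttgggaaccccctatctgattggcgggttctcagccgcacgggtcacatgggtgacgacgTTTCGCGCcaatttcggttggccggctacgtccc
Mcm6: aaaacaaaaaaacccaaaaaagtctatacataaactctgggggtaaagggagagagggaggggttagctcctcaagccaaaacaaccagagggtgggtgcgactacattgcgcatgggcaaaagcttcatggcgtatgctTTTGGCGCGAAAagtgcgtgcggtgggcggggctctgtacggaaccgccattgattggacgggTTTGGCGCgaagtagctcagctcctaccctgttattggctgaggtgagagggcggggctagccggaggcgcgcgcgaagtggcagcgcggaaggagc
Rfc5: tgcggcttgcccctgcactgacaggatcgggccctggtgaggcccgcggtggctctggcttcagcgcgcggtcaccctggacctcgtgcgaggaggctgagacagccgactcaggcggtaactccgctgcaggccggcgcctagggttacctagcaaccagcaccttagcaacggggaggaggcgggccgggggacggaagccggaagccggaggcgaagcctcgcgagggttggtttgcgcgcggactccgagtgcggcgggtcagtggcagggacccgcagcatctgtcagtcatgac
Rrm2: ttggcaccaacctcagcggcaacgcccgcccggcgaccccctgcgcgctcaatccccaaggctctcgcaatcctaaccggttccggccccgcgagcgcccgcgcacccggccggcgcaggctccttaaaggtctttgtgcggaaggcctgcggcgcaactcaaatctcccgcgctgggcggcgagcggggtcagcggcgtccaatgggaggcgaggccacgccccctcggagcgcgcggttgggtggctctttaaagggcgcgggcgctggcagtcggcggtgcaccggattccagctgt

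At least 1 of the 4 E2F forms stood in a window of 15 of the 38 members (39.5%), against 704 of the 27025 genes with a RefSeq promoter (2.6%). Here and below genes are counted, and a gene with several windows counts once if any of them matched. The form TTTGGCGC was found in 7 of the 38 members, TTTCGCGC in 7 and TTTCCCGC in 6, while no member window held TTTGCCGC. Of the 18 members with a window that were higher in DNTCF4 than in Vector, 8 held a match (44.4%), and of the other 20 members 7 did (35%). Match and call did not always go together. Mcm6, Mcm5, Mcm3 and Rfc3 held 2 or more matches and were not called in that comparison. Pola2 and Cdc45 held none of the 4 exact forms and were among the largest changes, and near matches were not searched. Of 27 genes with a window on a list of G2/M and mitosis genes, 1 held an E2F form (3.7%) and 21 held TTTGAA (77.8%). TTTGAA is the core of the cell cycle homology region of late cell cycle promoters. It was found for 5 of the 38 members (13.2%) and for 20.2% of all genes with a RefSeq promoter, and CCAAT for 23 (60.5%) and for 41.1%. A match is a string of letters in a fixed window and does not show that a factor binds there.

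Library totals ran from 23597545 to 33999982 counts, and the lowest count of any member in any library was 93, for E2f2. Levels below are CPM, counts relative to library size after TMM scaling, and each change is a log2 fold change with a standard error (SE). The SE was worked back from the test, as the absolute log2 fold change divided by the square root of the F statistic. The test was edgeR's quasi-likelihood test, its p-values were adjusted by the Benjamini-Hochberg method over 15052 genes, and a member is called where its adjusted p was under 0.05. Tcf7l2, which encodes TCF4, was at 46.6, 46.4 and 43.4 CPM in the DNTCF4_EZH2 libraries, 37.9, 32.5 and 35.2 CPM in DNTCF4_SET, 37.0, 41.4 and 40.9 CPM in DNTCF4 and 8.63, 13.6 and 10.9 CPM in Vector. Ezh2 was at 429 to 469.5 CPM in DNTCF4_EZH2, 509 to 574 CPM in DNTCF4_SET, 62.7 to 68.8 CPM in DNTCF4 and 56.5 to 59.5 CPM in Vector. Ezh2 RNA was thus raised over DNTCF4 in both groups with a second construct (log2 fold change 2.78 in DNTCF4_EZH2, adjusted p = 2.03e-14, and 3.06 in DNTCF4_SET, adjusted p = 1.12e-14), and it was lower in DNTCF4_EZH2 than in DNTCF4_SET (log2 fold change -0.28, SE 0.048, adjusted p = 0.003). Cells of both groups therefore carried raised Ezh2 RNA in the comparisons below. DNTCF4 replicate 1 stood apart: set against the 2 other DNTCF4 libraries, its counts gave chi-square values of 20.7 and 13.1 for each degree of freedom, where those 2 gave 3.33. DNTCF4_EZH2 replicates 1 and 2 gave 16.3, with 6.33 and 6.09 for their pairs with replicate 3, and the pairs of the other groups gave 2.59 to 4.13. The summed level of 10 mesenchymal markers was 6108 to 6248 CPM in DNTCF4_EZH2, 5589.9 to 6058 CPM in DNTCF4_SET, 4740.5 to 5278 CPM in DNTCF4 and 11265 to 12219 CPM in Vector, with Twist1 at 0 counts in each library. Most of that sum was Fn1, at 208025 to 245145 counts in Vector and 93303 to 125754 in DNTCF4, where no other marker exceeded 28705. Of the 9 markers tested, 7 were called lower in DNTCF4 than in Vector and 1 higher, against 28% and 29.5% of all tested genes. The epithelial keratins Krt8 and Krt18 were at 79.7 to 89.6 and 227 to 262 CPM while Krt5, Krt14, Esrp1, Epcam and Cdh1 were at 1.15 CPM or less. The epithelial claudin gene Cldn4 was at 3.20 to 3.76 CPM in DNTCF4_EZH2, 3.57 to 4.31 CPM in DNTCF4_SET, 2.52 to 2.61 CPM in DNTCF4 and 0.754 to 1.22 CPM in Vector. It was higher in DNTCF4 than in Vector (log2 fold change 1.39, SE 0.17, adjusted p = 5.66e-06), as was Krt18 (log2 fold change 0.11, adjusted p = 0.0331). Thus 2 of the 5 epithelial markers tested were called, where 57.5% of all tested genes were. Their log2 fold changes ran from -0.415 to 1.39, with 3 above 0. The 8 epithelial markers summed to 333 to 354 CPM in DNTCF4_EZH2, 330.1 to 342 CPM in DNTCF4_SET, 318 to 354 CPM in DNTCF4 and 318 to 320.5 CPM in Vector. The 7 leukocyte markers summed to 66.7 to 71.5 CPM in DNTCF4_EZH2, 59.5 to 68.1 CPM in DNTCF4_SET, 44.9 to 65.9 CPM in DNTCF4 and 53.5 to 57.9 CPM in Vector. Most of that sum was Cd68, a lysosomal gene of macrophages, at 43.5 to 69.9 CPM, which was higher in DNTCF4_EZH2 than in Vector (log2 fold change 0.34, SE 0.101, adjusted p = 0.00859), whereas Csf1r reached at most 1.85 CPM and the pan-leukocyte gene Ptprc at most 0.592 CPM. The 4 endothelial markers summed to between 1.85 and 4.72 CPM. The part of these marker shifts in the results below was not tested.

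The comparison of DNTCF4 with Vector asks what changed in cells that carry the dominant negative factor. Among the members higher in DNTCF4 were 3 of 4 origin loading genes, 4 of 6 CMG assembly genes and the 4 G1/S regulators, by at most 1.501-fold (E2f2), while the clamp loader subunit Rfc5 and the ribonucleotide reductase subunit Rrm2 were lower. In all, 21 of the 47 members were called higher (44.7%) and 3 lower (6.38%), where 57.5% of all tested genes were called, 29.5% higher and 28% lower. The median log2 fold change was 0.11 over the members, with a range of -0.37 to 0.59, and 0.01 over all tested genes, whose quartiles were -0.26 and 0.28. Libraries of the groups did not overlap for 22 members that were higher and 3 that were lower, against 30.2% and 29% of all tested genes. In bulk RNA, more cells in S phase and more transcript per cell cannot be told apart.

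**Figure D1:**
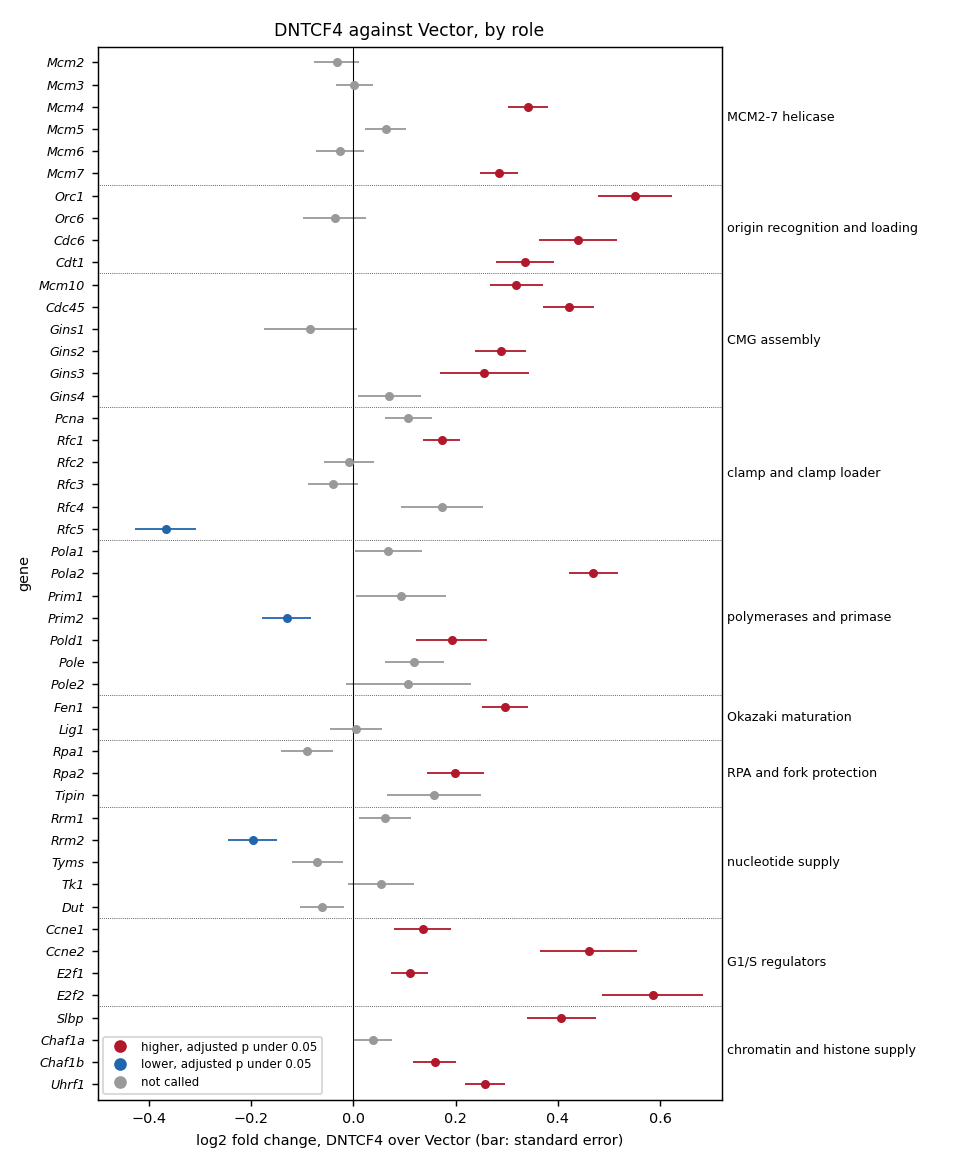
Log2 fold change of DNTCF4 over Vector (x axis) for each of the 47 members (rows, grouped by role). Points are edgeR estimates and bars are 1 standard error, worked back from the test, with 3 libraries per group. The 21 red points lie between 0.11 and 0.59, and the 3 blue ones are Rfc5, Rrm2 and Prim2, at -0.37, -0.20 and -0.13.

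Origin recognition and loading factors were among the largest changes, with 3 of 4 called higher. Orc1, the largest subunit of the origin recognition complex (chr4:108579423-108614833, plus strand, GRCm38), was at 18.5, 16.6 and 16.2 CPM in DNTCF4 libraries and 11.6, 11.8 and 11.6 CPM in Vector. The DNTCF4 libraries lay wholly above the Vector ones, which were nearly level with each other. The difference was 1.47-fold (log2 fold change 0.55, SE 0.072, adjusted p = 1.09e-05). Cdc6, the ATPase that joins the complex to recruit the helicase, was at 18.1, 17.7 and 20.4 CPM in DNTCF4 and 13.3, 14.2 and 14.0 CPM in Vector (log2 fold change 0.44, SE 0.077, adjusted p = 1.61e-04). Cdt1, which brings MCM2-7 to the origin, was at 109, 126 and 121 CPM in DNTCF4 and 89.1, 100.3 and 92.7 CPM in Vector (log2 fold change 0.34, SE 0.056, adjusted p = 1.16e-04). Neither gene overlapped between the groups. Orc6, a further subunit of the recognition complex, overlapped at 38.2 to 45.3 CPM in DNTCF4 and 40.2 to 43.0 CPM in Vector (log2 fold change -0.04, SE 0.062, adjusted p = 0.642).

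Of the 6 subunits of the MCM2-7 helicase, 2 were called higher. Mcm4 (chr16:15623897-15637400, minus strand, GRCm38) was at 157, 153 and 145 CPM in DNTCF4 and 115, 122 and 121 CPM in Vector, and Mcm7 at 124, 123 and 123 CPM and 99.4, 103 and 102 CPM. Every DNTCF4 library exceeded every Vector library for both. The changes were 1.27-fold for Mcm4 (log2 fold change 0.34, SE 0.038, adjusted p = 2.07e-06) and 1.22-fold for Mcm7 (log2 fold change 0.28, SE 0.037, adjusted p = 9.85e-06). Mcm2, Mcm3, Mcm5 and Mcm6 overlapped between the groups, at log2 fold changes of -0.03, 0.00, 0.06 and -0.03 with standard errors of 0.037 to 0.047, so the subunits of 1 ring did not move by equal amounts. Levels per kilobase divide CPM by the merged length of all annotated exons of a gene, not by the length of its transcript. On that scale Mcm4 was the highest subunit, at 42.2 ± 1.72 CPM per kb in DNTCF4 and 33.3 ± 1.03 in Vector (SD, n = 3 each). Mcm2, with 6956 bases of merged exons, was the lowest, at 14.1 ± 0.626 CPM per kb in DNTCF4 and 14.4 ± 0.301 in Vector. Its place depends on that length. In CPM, Mcm2 in DNTCF4 (93.2 to 102) was above Mcm5 (69.6 to 74.8) and Mcm6 (75.8 to 83.8). In DNTCF4, Mcm3 at 29.4 ± 0.374 and Mcm7 at 27.9 ± 0.224 CPM per kb stood next to each other, and in Vector they were further apart, at 29.4 ± 1.03 and 22.9 ± 0.376.

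Genes that turn the loaded ring into the CMG helicase followed, with 4 of 6 called higher. Cdc45 was at 56.2, 64.7 and 60.4 CPM in DNTCF4 and 44.7, 45.2 and 45.7 CPM in Vector, with no overlap and a 1.34-fold difference (log2 fold change 0.42, SE 0.049, adjusted p = 3.29e-06). Mcm10, which acts when the helicase is activated, was at 32.1, 33.9 and 35.7 CPM in DNTCF4 and 26.2, 27.9 and 27.4 CPM in Vector (log2 fold change 0.32, SE 0.052, adjusted p = 8.57e-05). The GINS subunit gene Gins2 was at 46.9, 52.3 and 49.4 CPM in DNTCF4 and 41.3, 39.98 and 40.4 CPM in Vector (log2 fold change 0.29, SE 0.050, adjusted p = 1.44e-04). Each of these 3 genes was higher in every DNTCF4 library than in any Vector library. For Gins2, 67.3% of the exon bases are shared with Gse1 on the opposite strand, and the sources used here do not say whether counting used strand. Gins3 was called higher although its libraries overlapped, at 14.9, 12.4 and 15.2 CPM in DNTCF4 and 11.7, 10.8 and 13.1 CPM in Vector (log2 fold change 0.26, SE 0.087, adjusted p = 0.0206). Gins1 and Gins4, the remaining subunits, had log2 fold changes of -0.08 and 0.07 and were not called.

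At the fork the changes were mixed. Pola2, the regulatory subunit of polymerase alpha, was at 87.9, 99.6 and 94.8 CPM in DNTCF4 and 67.9, 66.7 and 69.4 CPM in Vector, without overlap (log2 fold change 0.47, SE 0.048, adjusted p = 7.20e-07). Its catalytic partner Pola1 was at 76.1, 61.3 and 64.3 CPM in DNTCF4 and 63.1, 65.2 and 63.8 CPM in Vector, where replicate 1 of DNTCF4 was well above the other libraries, and was not called (log2 fold change 0.07, SE 0.066, adjusted p = 0.394). Of the primase subunits, which complete the same 4-subunit complex, Prim2 was lower at 27.1 to 29.4 CPM in DNTCF4 and 30.03 to 31.7 CPM in Vector (log2 fold change -0.13, SE 0.048, adjusted p = 0.0317), and Prim1 was not called (log2 fold change 0.09, SE 0.089, adjusted p = 0.39). The catalytic subunit genes of polymerases delta and epsilon, Pold1 and Pole, were at 36.4, 43.7 and 41.8 and 35.9, 31.5 and 33.8 CPM in DNTCF4 and at 32.2, 36.7 and 38.0 and 31.2, 30.8 and 31.0 CPM in Vector. Pold1 overlapped between the groups and was called higher (log2 fold change 0.19, SE 0.070, adjusted p = 0.0285), whereas Pole did not overlap and was not called (log2 fold change 0.12, SE 0.057, adjusted p = 0.0882). Fen1, the nuclease that trims Okazaki fragments, was 1.23-fold higher (50.5 to 53.9 CPM in DNTCF4 and 41.5 to 43.5 CPM in Vector, adjusted p = 3.98e-05), and Lig1, the ligase that seals them, differed by 0.00 on the log2 scale (SE 0.051). For Fen1, 78.8% of the exon bases are shared with an antisense transcript, Gm10143, that had a mean of 25.4 counts against 1398 for Fen1.

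The clamp and its loader split. Rfc5 (chr5:117378103-117389047, minus strand, GRCm38), a small subunit of the loader, was at 21.4, 21.1 and 20.3 CPM in DNTCF4 and 28.4, 27.0 and 25.5 CPM in Vector. The DNTCF4 libraries lay below all Vector libraries, and the fall was 1.29-fold (log2 fold change -0.37, SE 0.060, adjusted p = 8.88e-05). Rfc1, the large subunit, was at 151, 147 and 143 CPM in DNTCF4 and 128, 132 and 131 CPM in Vector (log2 fold change 0.17, SE 0.036, adjusted p = 7.10e-04). It did not overlap either, in the other direction. Rfc2, Rfc3 and Rfc4 had log2 fold changes of -0.01, -0.04 and 0.17 and were not called. Pcna, the clamp itself and the member with the highest level per kilobase in both groups, was at 80.9 ± 5.6 CPM per kb in DNTCF4 and 75.1 ± 2.32 in Vector and missed the threshold (log2 fold change 0.11, SE 0.046, adjusted p = 0.0564). Rpa2, a subunit of the single-strand binding protein, was 1.15-fold higher (28.3 to 32.3 CPM in DNTCF4 and 25.3 to 27.0 CPM in Vector, adjusted p = 0.00677). Rpa1 and the fork protection gene Tipin were not called, at -0.09 and 0.16 on the log2 scale.

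Of the 5 nucleotide supply genes none was among the 21 called higher and 1 was lower. Rrm2, the small subunit of ribonucleotide reductase, was at 37.8, 36.4 and 37.7 CPM in DNTCF4 and 42.1, 43.9 and 42.2 CPM in Vector, with no overlap (log2 fold change -0.20, SE 0.048, adjusted p = 0.00262). Rrm1, the large subunit, was at 98.4, 84.0 and 85.4 CPM in DNTCF4 and 85.4, 86.1 and 84.8 CPM in Vector, where DNTCF4 replicate 1 was the high one (log2 fold change 0.06, SE 0.050, adjusted p = 0.307). The thymidylate genes Tyms, Tk1 and Dut had log2 fold changes of -0.07, 0.05 and -0.06, and their libraries overlapped.

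The 4 G1/S regulators were called higher. E2f2 (chr4:136172394-136196057, plus strand, GRCm38), an activating E2F factor and the least abundant of the members per kilobase in Vector, was at 5.49, 5.67 and 5.42 CPM in DNTCF4 and 3.54, 3.62 and 3.90 CPM in Vector. Its DNTCF4 libraries were close together and above every Vector library, and the 1.501-fold difference was the largest among the 47 (log2 fold change 0.59, SE 0.099, adjusted p = 1.21e-04). Ccne2, encoding cyclin E2, was at 27.0, 21.0 and 21.4 CPM in DNTCF4 and 16.8, 15.1 and 18.6 CPM in Vector, and DNTCF4 replicate 1 was the highest of the 12 libraries (log2 fold change 0.46, SE 0.094, adjusted p = 6.57e-04). E2f1 and Ccne1 differed less, at 92.5 to 96.2 and 29.6 to 32.1 CPM in DNTCF4 against 85.2 to 89.4 and 27.3 to 28.6 CPM in Vector. Their log2 fold changes were 0.11 (adjusted p = 0.018) and 0.14 (adjusted p = 0.0485). Among genes of chromatin copying, Slbp, which binds the stem-loop of histone mRNA, was at 126, 103 and 103 CPM in DNTCF4 and 88.7, 80.7 and 81.1 CPM in Vector, again with replicate 1 highest (log2 fold change 0.41, SE 0.068, adjusted p = 1.06e-04). Uhrf1, which guides DNA methylation to new strands, was 1.196-fold higher (adjusted p = 4.86e-05), and Chaf1b, of chromatin assembly factor 1, 1.12-fold (adjusted p = 0.00423). Its partner Chaf1a was at 91.3 to 94.7 CPM in DNTCF4 and 89.5 to 90.9 CPM in Vector and was not called.

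Of the 24 calls, 19 held whichever of the 6 libraries was left out, and without DNTCF4 replicate 1 there were again 24, 20 higher and 4 lower. Ccne1 was not called without DNTCF4 replicate 1 (log2 fold change 0.09, adjusted p = 0.162), DNTCF4 replicate 2 (0.15, adjusted p = 0.053) or any 1 Vector library (0.13 to 0.16, adjusted p = 0.0527 to 0.108). E2f1 lost its call without DNTCF4 replicate 2 or Vector replicate 3 (0.09 and 0.10, adjusted p = 0.0809 and 0.0595). Gins3 lost it without DNTCF4 replicate 1 or 3 or Vector replicate 2 (0.21, 0.21 and 0.20, adjusted p = 0.0534, 0.0711 and 0.0938). Pold1 lost it without DNTCF4 replicate 2 or 3 or Vector replicate 1 (0.13, 0.19 and 0.14, adjusted p = 0.145, 0.0678 and 0.125), and Prim2 without DNTCF4 replicate 2 or Vector replicate 1 or 3 (-0.10, -0.10 and -0.12, adjusted p = 0.102, 0.155 and 0.0812). With only these 6 libraries fitted these 5 genes were not called, and 8 members passed a test against a fold of 1.2. The share of all tested genes that passed it is not given here.

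**Figure D2:**
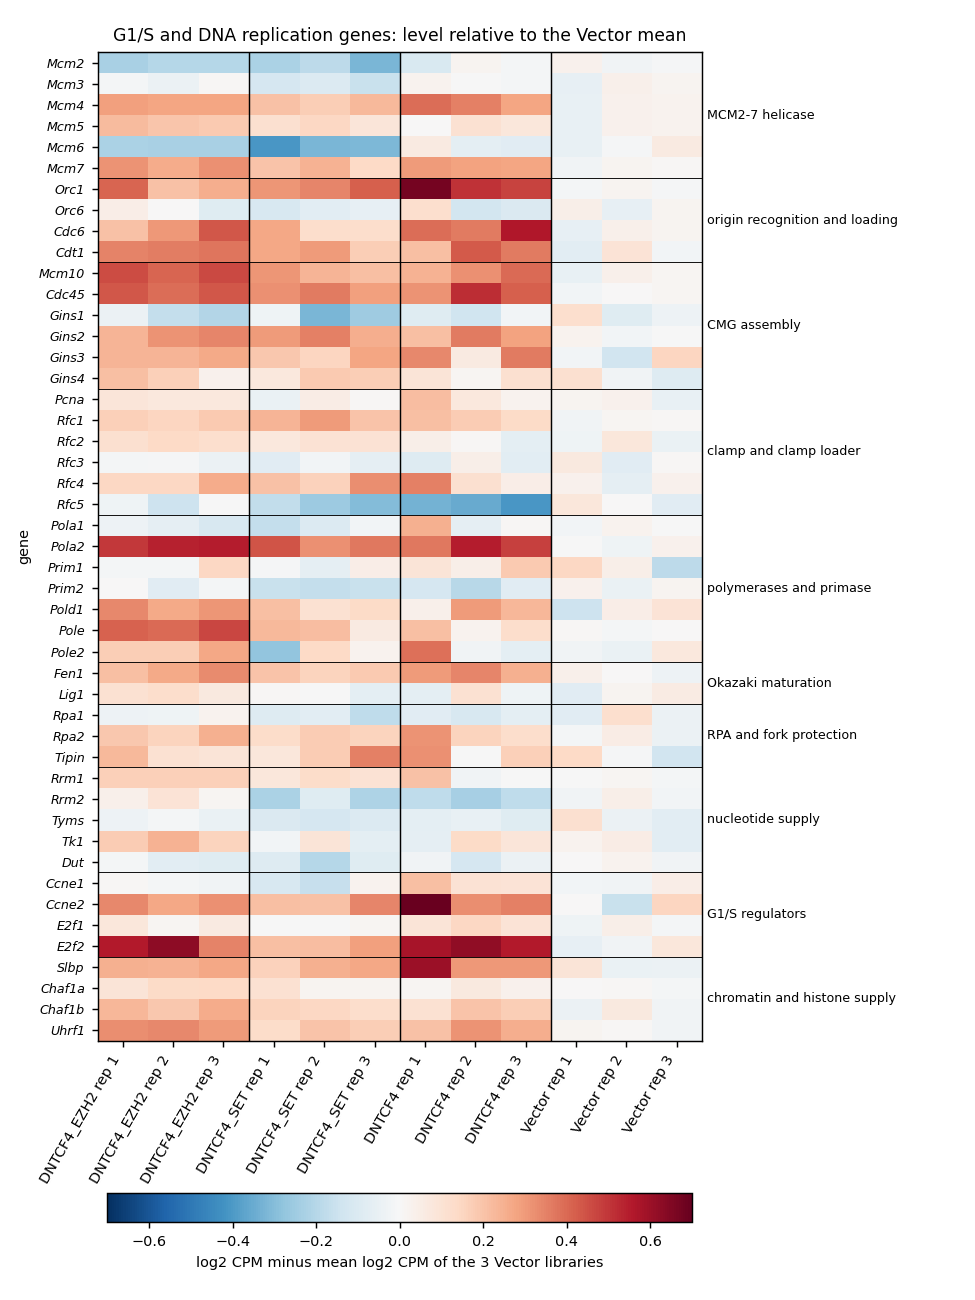
Level of each of the 47 members (rows, grouped by role) in each of the 12 libraries (columns), as log2 CPM minus the mean log2 CPM of the 3 Vector libraries; red is above and blue below the Vector mean. Orc1, Cdc45, Pola2 and E2f2 are red in the 9 libraries with DNTCF4, Mcm2 and Mcm6 are blue in the DNTCF4_EZH2 and DNTCF4_SET columns, and the row of Rfc5 is darkest in the DNTCF4 columns.

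What the EZH2 construct added is asked by setting DNTCF4_EZH2 against DNTCF4. The 47 genes moved little: Rfc5, Pole, Rrm2 and Mcm5 were higher in DNTCF4_EZH2, and Orc1, Mcm6 and Mcm2 were lower. These 7 calls were 14.9% of the members, where 25.5% of all tested genes were called, 13% higher and 12.5% lower. The median log2 fold change of the members was 0.01, with a range of -0.26 to 0.31, and that of all tested genes was -5e-04. The groups did not overlap for 10 members that were higher and 6 that were lower, against 19.9% and 19.2% of all tested genes. All 30 genes of the G2/M and mitosis list were called higher in DNTCF4_EZH2, with a median of 0.51. Among them Mki67, the gene of the proliferation antigen Ki-67, was at 195, 190.0 and 198 CPM in DNTCF4_EZH2 and 125, 117 and 122 CPM in DNTCF4 (log2 fold change 0.68, SE 0.038, adjusted p = 4.81e-09).

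Rfc5 was at 26.4, 24.4 and 26.9 CPM in DNTCF4_EZH2 and 21.4, 21.1 and 20.3 CPM in DNTCF4. Each DNTCF4_EZH2 library was above each DNTCF4 library (log2 fold change 0.31, SE 0.059, adjusted p = 0.0014). Rrm2 was at 43.8, 45.7 and 43.1 CPM in DNTCF4_EZH2 and 37.8, 36.4 and 37.7 CPM in DNTCF4, without overlap (log2 fold change 0.24, SE 0.047, adjusted p = 0.00144). Against Vector, with the same DNTCF4_EZH2 libraries, Rfc5 differed by -0.06 (SE 0.058) and Rrm2 by 0.05 (SE 0.047) on the log2 scale, and neither was called. Pole was at 41.2, 40.8 and 42.9 CPM in DNTCF4_EZH2 and 35.9, 31.5 and 33.8 CPM in DNTCF4, and all 3 libraries with the second construct were higher (log2 fold change 0.31, SE 0.056, adjusted p = 8.67e-04). Against Vector, at 31.2, 30.8 and 31.0 CPM, Pole in DNTCF4_EZH2 was 1.34-fold higher (log2 fold change 0.43, SE 0.056, adjusted p = 1.16e-05).

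Mcm6 (chr1:128331590-128359664, minus strand, GRCm38) was at 68.6, 68.4 and 68.6 CPM in DNTCF4_EZH2 and 83.8, 76.5 and 75.8 CPM in DNTCF4. The DNTCF4_EZH2 values were nearly identical to each other and below all DNTCF4 values (log2 fold change -0.20, SE 0.047, adjusted p = 0.00574). Mcm2 was at 85.6, 87.4 and 87.5 CPM in DNTCF4_EZH2 and 93.2, 102 and 99.4 CPM in DNTCF4, also without overlap (log2 fold change -0.18, SE 0.044, adjusted p = 0.00821). Mcm5 was at 81.0, 79.6 and 78.9 CPM in DNTCF4_EZH2 and 69.6, 74.8 and 73.6 CPM in DNTCF4, so that subunits of the same ring differed in opposite directions (log2 fold change 0.14, SE 0.040, adjusted p = 0.0216). Orc1 was at 15.5, 13.4 and 13.9 CPM in DNTCF4_EZH2 and 18.5, 16.6 and 16.2 CPM in DNTCF4, where the DNTCF4 libraries were higher (log2 fold change -0.26, SE 0.069, adjusted p = 0.0132). The remaining 40 members were not called, and 13 members (27.7%) had an unadjusted p under 0.05. The share of all tested genes at that looser threshold is not given. It is at least the 25.5% called at the adjusted one. Over the members outside those calls, log2 fold changes for E2f2, Cdc45 and Pola2 were -0.07 (SE 0.092), -0.00 (SE 0.048) and 0.06 (SE 0.047).

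Without DNTCF4_EZH2 replicate 2 or 3 the Orc1 call was lost (log2 fold change -0.22 and -0.24, adjusted p = 0.0674 and 0.0509), and the Mcm5 call was lost without any 1 of the DNTCF4_EZH2 libraries (0.13 to 0.14, adjusted p = 0.0535 to 0.0925). No member passed the test against a fold of 1.2.

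DNTCF4_SET was compared with DNTCF4 in the same way, with the same DNTCF4 libraries. The members called lower in DNTCF4_SET were Mcm2, Mcm3, Mcm4 and Mcm6 among the 6 ring subunits, E2f2, E2f1 and Ccne1 among the 4 regulators, and the loader Cdc6. These 8 calls were 17% of the members, each of them lower, where 26% of all tested genes were called, 12.7% higher and 13.3% lower. The median log2 fold change was -0.06 over the members, with a range of -0.35 to 0.12, and -0.004 over all tested genes. The groups did not overlap for 14 members that were lower and 2 that were higher, against 18.9% and 18.2% of all tested genes. Of the 30 G2/M and mitosis genes, 26 were called higher in DNTCF4_SET, with a median of 0.33 on the log2 scale.

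Mcm6 was at 60.4, 64.2 and 64.4 CPM in DNTCF4_SET and 83.8, 76.5 and 75.8 CPM in DNTCF4. Each DNTCF4_SET library lay below the lowest DNTCF4 library, and the fall was 1.248-fold (log2 fold change -0.32, SE 0.047, adjusted p = 1.66e-04). Mcm2 was at 86.0, 88.3 and 80.3 CPM in DNTCF4_SET and 93.2, 102 and 99.4 CPM in DNTCF4 (log2 fold change -0.21, SE 0.044, adjusted p = 0.00269). Mcm4 was at 138, 134 and 139.9 CPM in DNTCF4_SET and 157, 153 and 145 CPM in DNTCF4 (log2 fold change -0.14, SE 0.038, adjusted p = 0.0136), and Mcm3 at 102, 103 and 99.0 CPM and 112, 110.2 and 109 CPM (log2 fold change -0.13, SE 0.037, adjusted p = 0.0199). All 4 genes were lower in every DNTCF4_SET library than in any DNTCF4 library. Mcm5 and Mcm7 were not called, at 0.05 (SE 0.040) and -0.09 (SE 0.037) on the log2 scale.

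E2f2 was at 4.26, 4.29 and 4.49 CPM in DNTCF4_SET and 5.49, 5.67 and 5.42 CPM in DNTCF4, with tight values in both groups and no overlap (log2 fold change -0.35, SE 0.095, adjusted p = 0.0144). Ccne1, encoding cyclin E1, was at 25.6, 24.8 and 28.2 CPM in DNTCF4_SET and 32.1, 29.7 and 29.6 CPM in DNTCF4 (log2 fold change -0.22, SE 0.056, adjusted p = 0.00992). E2f1 was at 86.6, 86.9 and 87.8 CPM in DNTCF4_SET and 92.5, 96.2 and 92.8 CPM in DNTCF4, a small but separated difference (log2 fold change -0.11, SE 0.036, adjusted p = 0.042). Cdc6 was at 16.6, 15.05 and 15.02 CPM in DNTCF4_SET and 18.1, 17.7 and 20.4 CPM in DNTCF4, and its DNTCF4 libraries were the higher ones (log2 fold change -0.27, SE 0.075, adjusted p = 0.0159). Rfc5, Pole and Rrm2, which were called in DNTCF4_EZH2 against the same DNTCF4 libraries, had log2 fold changes of 0.12 (SE 0.060), 0.05 (SE 0.056) and 0.02 (SE 0.048) here.

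Only Mcm6, Mcm2 and E2f2 kept their calls whichever of these 6 libraries was left out, E2f2 was not called by DESeq2 (adjusted p = 0.0955), and no member passed the test against a fold of 1.2. Cdc6 was not called without DNTCF4_SET replicate 2 or 3 or DNTCF4 replicate 3 (log2 fold change -0.25, -0.24 and -0.20, adjusted p = 0.0622, 0.0669 and 0.086). Ccne1 and Mcm4 were not called without DNTCF4_SET replicate 2 (-0.18 and -0.13, adjusted p = 0.0507 and 0.0608), Mcm3 not without DNTCF4_SET replicate 3 (-0.11, adjusted p = 0.0874) and E2f1 not without any 1 DNTCF4_SET library or DNTCF4 replicate 2 or 3 (-0.11 to -0.09, adjusted p = 0.082 to 0.118). Without DNTCF4 replicate 1, 14 members were called, 13 lower and 1 higher, while 4 were called without DNTCF4_SET replicate 2, 5 without its replicate 3 and 4 with only the 6 libraries fitted. Shares of all tested genes called at those settings are not given here.

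**Figure D3:**
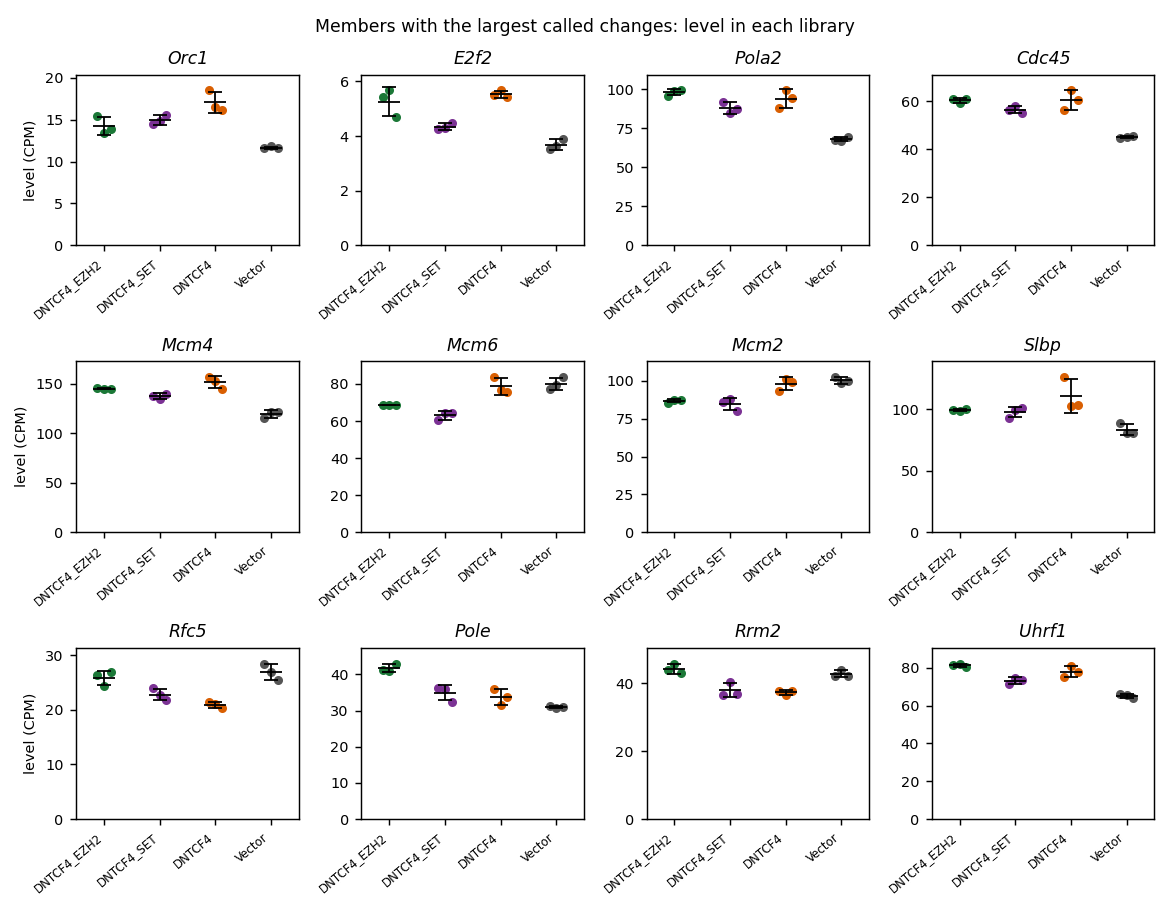
Level in CPM (y axis, from 0) of 12 members in each library of the 4 groups (x axis); points are libraries, long bars are means and whiskers are 1 SD (n = 3). Orc1, E2f2, Pola2, Cdc45 and Mcm4 lie above Vector in each of the other groups, Mcm6 and Mcm2 are lowest in DNTCF4_EZH2 and DNTCF4_SET, and Rfc5 is lowest in DNTCF4.

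Against Vector, cells with DNTCF4 and a second construct showed more members higher than lower. In DNTCF4_EZH2, 25 members were called higher (53.2%) and Mcm2 and Mcm6 lower, where 57.7% of all tested genes were called, 28.7% higher and 29% lower. Its libraries did not overlap with Vector for 29 members that were higher and 3 that were lower, against 33.8% and 34.3% of all tested genes. In DNTCF4_SET, 18 were called higher (38.3%) and 7 lower (14.9%), where 58% of all tested genes were called, 28.1% higher and 29.9% lower. There the libraries did not overlap for 24 members that were higher and 9 that were lower, against 32.1% and 34% of all tested genes. Median log2 fold changes of the members were 0.17 in DNTCF4_EZH2 and 0.11 in DNTCF4_SET, against -0.01 and -0.02 over all tested genes. These comparisons share the Vector libraries with that of DNTCF4, so their values are given side by side and not set against each other as independent evidence.

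Pola2 had the largest log2 fold change in both groups, at 95.9, 98.9 and 99.4 CPM in DNTCF4_EZH2, 92.1, 84.8 and 87.7 CPM in DNTCF4_SET and 67.9, 66.7 and 69.4 CPM in Vector. Both groups lay wholly above Vector, by 0.53 (SE 0.048, adjusted p = 1.76e-07) and 0.38 (SE 0.048, adjusted p = 7.66e-06) on the log2 scale. Cdc45 was at 61.0, 59.2 and 61.1 CPM in DNTCF4_EZH2, 56.3, 58.2 and 55.1 CPM in DNTCF4_SET and 44.7, 45.2 and 45.7 CPM in Vector, with log2 fold changes of 0.42 and 0.32. Mcm10 was at 37.2, 36.0 and 37.5 CPM in DNTCF4_EZH2, 33.7, 32.0 and 31.4 CPM in DNTCF4_SET and 26.2, 27.9 and 27.4 CPM in Vector, with log2 fold changes of 0.44 and 0.25. Neither gene overlapped with Vector in either group. Cdt1 followed at 119.7, 120.4 and 122 CPM in DNTCF4_EZH2, 113, 115 and 106 CPM in DNTCF4_SET and 89.1, 100.3 and 92.7 CPM in Vector, again separate (0.36 and 0.24 on the log2 scale). Adjusted p-values of these 3 genes were 0.00167 or less.

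E2f2 was at 5.42, 5.68 and 4.68 CPM in DNTCF4_EZH2 and 3.54, 3.62 and 3.90 CPM in Vector (log2 fold change 0.52, SE 0.098, adjusted p = 3.60e-04). In DNTCF4_SET, at 4.26, 4.29 and 4.49 CPM, it lay above Vector without overlap and missed the threshold (log2 fold change 0.24, SE 0.101, adjusted p = 0.0548). Orc1, at 14.5, 14.8 and 15.6 CPM in DNTCF4_SET and 11.6, 11.8 and 11.6 CPM in Vector, was called higher (log2 fold change 0.36, SE 0.073, adjusted p = 6.23e-04), as it was in DNTCF4_EZH2 at 13.4 to 15.5 CPM (log2 fold change 0.29, SE 0.073, adjusted p = 0.00294). Cdc6 was at 15.9, 17.0 and 18.6 CPM in DNTCF4_EZH2, 16.6, 15.05 and 15.02 CPM in DNTCF4_SET and 13.3, 14.2 and 14.0 CPM in Vector. It was called in DNTCF4_EZH2 (log2 fold change 0.31, SE 0.076, adjusted p = 0.00255) and not in DNTCF4_SET (log2 fold change 0.17, SE 0.078, adjusted p = 0.0694). Ccne2 was at 21.1, 20.2 and 20.9 CPM in DNTCF4_EZH2, 19.4, 19.3 and 21.2 CPM in DNTCF4_SET and 16.8, 15.1 and 18.6 CPM in Vector. Both groups were above Vector, by 0.31 (adjusted p = 0.0114) and 0.25 (adjusted p = 0.0327) on the log2 scale. Part of the exons of Ccne2, 17.4% of their bases, is shared with Ints8 on the opposite strand.

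Gins2, Uhrf1, Pold1 and Rfc1 were among the further members called in 1 or both groups. Gins2 was at 49.96, 51.8 and 48.4 CPM in DNTCF4_SET and 41.3, 39.98 and 40.4 CPM in Vector (log2 fold change 0.30, SE 0.050, adjusted p = 9.49e-05). Rfc1 was at 154, 160.2 and 150.1 CPM in DNTCF4_SET and 128, 132 and 131 CPM in Vector (log2 fold change 0.25, SE 0.036, adjusted p = 2.82e-05), and the libraries of these genes did not overlap. Uhrf1 was at 81.5, 82.2 and 80.2 CPM in DNTCF4_EZH2 and 66.0, 65.5 and 64.0 CPM in Vector (log2 fold change 0.32, SE 0.039, adjusted p = 5.42e-06). Pold1 was at 44.8, 42.7 and 44.0 CPM in DNTCF4_EZH2 and 32.2, 36.7 and 38.0 CPM in Vector (log2 fold change 0.30, SE 0.069, adjusted p = 0.00163). Every DNTCF4_EZH2 library was the higher one for both.

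The 6 subunits of the MCM2-7 helicase split. Against Vector, 3 were called higher and 2 lower in DNTCF4_EZH2, and 3 higher and 3 lower in DNTCF4_SET. Of the 5 nucleotide supply genes, 2 were called lower and 0 higher in DNTCF4_SET, whereas 2 were called higher and 0 lower in DNTCF4_EZH2. Mcm6 was at 68.6, 68.4 and 68.6 CPM in DNTCF4_EZH2, 60.4, 64.2 and 64.4 CPM in DNTCF4_SET and 77.2, 79.6 and 83.7 CPM in Vector. Both groups lay below every Vector library, by -0.23 (adjusted p = 7.70e-04) and -0.35 (adjusted p = 1.58e-05) on the log2 scale. Mcm2 was lower as well, by -0.21 (adjusted p = 8.26e-04) and -0.24 (adjusted p = 2.38e-04). In DNTCF4_SET the other members called lower were Rfc5, Rrm2, Prim2, Dut and Mcm3. Rfc5 was at 23.9, 22.6 and 21.8 CPM in DNTCF4_SET and 28.4, 27.0 and 25.5 CPM in Vector, without overlap (log2 fold change -0.25, SE 0.059, adjusted p = 0.00237). The other 4 had log2 fold changes of -0.17, -0.16, -0.12 and -0.12. Mcm4 and Mcm7, in contrast, were above Vector in both groups, Mcm4 by 0.28 and 0.20 and Mcm7 by 0.30 and 0.19 in DNTCF4_EZH2 and DNTCF4_SET. Mcm5 was the further subunit above Vector in both, by 0.11 in DNTCF4_SET (adjusted p = 0.0245).

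In DNTCF4_EZH2, the call for Ccne2 was lost without Vector replicate 2 (log2 fold change 0.24, adjusted p = 0.0555), that for Chaf1a without DNTCF4_EZH2 replicate 2 or 3 (0.11 and 0.10, adjusted p = 0.0573 and 0.0603) and that for Tk1 without DNTCF4_EZH2 replicate 2 or Vector replicate 3 (0.16 and 0.15, adjusted p = 0.08 and 0.0834). Gins3 was not called without DNTCF4_EZH2 replicate 2 or 3 or Vector replicate 2 (0.24, 0.23 and 0.19, adjusted p = 0.0553, 0.0652 and 0.106), nor Rfc2 without DNTCF4_EZH2 replicate 2 or 3 or Vector replicate 1 or 3 (0.10 to 0.12, adjusted p = 0.0838 to 0.159). In DNTCF4_SET, leaving out 1 library ended the calls for Ccne2 (DNTCF4_SET replicate 3, Vector replicate 1 or 2, 0.18 to 0.27, adjusted p = 0.0523 to 0.136), Dut (DNTCF4_SET replicate 2, Vector replicate 1 or 2, -0.11 to -0.10, adjusted p = 0.0819 to 0.0891) and Rpa2 (DNTCF4_SET replicate 2 or 3, Vector replicate 3, 0.13 to 0.15, adjusted p = 0.0753 to 0.0958). It also ended those for Mcm3 (Vector replicate 2, -0.10, adjusted p = 0.0624), Mcm5 (DNTCF4_SET replicate 2 or Vector replicate 1, 0.09 and 0.10, adjusted p = 0.123 and 0.0727) and Pole (DNTCF4_SET replicate 2, 0.14, adjusted p = 0.0875). The same held for Prim2 (Vector replicate 1, -0.13, adjusted p = 0.0672), Rfc4 (DNTCF4_SET replicate 3 or Vector replicate 2, 0.18 and 0.21, adjusted p = 0.106 and 0.0606) and Rrm2 (DNTCF4_SET replicate 1, -0.14, adjusted p = 0.0501). Against a fold of 1.2, 5 members passed in DNTCF4_EZH2 and 2 in DNTCF4_SET, and the shares of all tested genes that passed are not given here.

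Set against each other, DNTCF4_EZH2 and DNTCF4_SET differed in 4 members, each higher in DNTCF4_EZH2. This was 8.51% of the members, where 5.16% of all tested genes were called, 3% higher and 2.17% lower. Pole was at 41.2, 40.8 and 42.9 CPM in DNTCF4_EZH2 and 36.3, 36.0 and 32.4 CPM in DNTCF4_SET (log2 fold change 0.26, SE 0.055, adjusted p = 0.014). Rrm2 was at 43.8, 45.7 and 43.1 CPM in DNTCF4_EZH2 and 36.7, 40.3 and 36.8 CPM in DNTCF4_SET (log2 fold change 0.22, SE 0.047, adjusted p = 0.0123). For both genes the groups were separate. Mcm10 at 36.0 to 37.5 and Uhrf1 at 80.2 to 82.2 CPM in DNTCF4_EZH2, against 31.4 to 33.7 and 71.3 to 74.8 CPM in DNTCF4_SET, differed by 0.19 (adjusted p = 0.0402) and 0.15 (adjusted p = 0.035) on the log2 scale. The libraries did not overlap for 27 members that were higher in DNTCF4_EZH2 and 1, Rfc1, that was lower, against 16.5% and 15.3% of all tested genes, and the median of the members was 0.07 against 0.0019. The calls for Mcm10 and Uhrf1 were lost without any 1 of the 6 libraries (log2 fold changes 0.17 to 0.22 and 0.13 to 0.17, adjusted p = 0.0612 to 0.171 and 0.0692 to 0.154). That for Pole was lost without replicate 3 of DNTCF4_EZH2 (0.23, adjusted p = 0.0785) or of DNTCF4_SET (0.20, adjusted p = 0.0818), and that for Rrm2 without DNTCF4_EZH2 replicate 2 or DNTCF4_SET replicate 1 or 3 (0.20 each, adjusted p = 0.0658 to 0.069). A fit of only these 6 libraries called 13 members, and the share of all tested genes it called is not given here. Of the helicase genes lower in DNTCF4_SET than in DNTCF4, Mcm6 (0.12, SE 0.047, adjusted p = 0.171), Mcm3 (0.11, SE 0.036, adjusted p = 0.109), Mcm4 (0.08, SE 0.038, adjusted p = 0.286) and Mcm2 (0.03, SE 0.044, adjusted p = 0.734) were not called here, although the groups did not overlap for Mcm6, Mcm3 and Mcm4. With only these 6 libraries fitted, Mcm6 and Mcm3 were called (log2 fold changes 0.12 and 0.10, adjusted p = 0.0282 and 0.0255). E2f2 was not called (0.28, SE 0.094, adjusted p = 0.113).

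**Figure D4:**
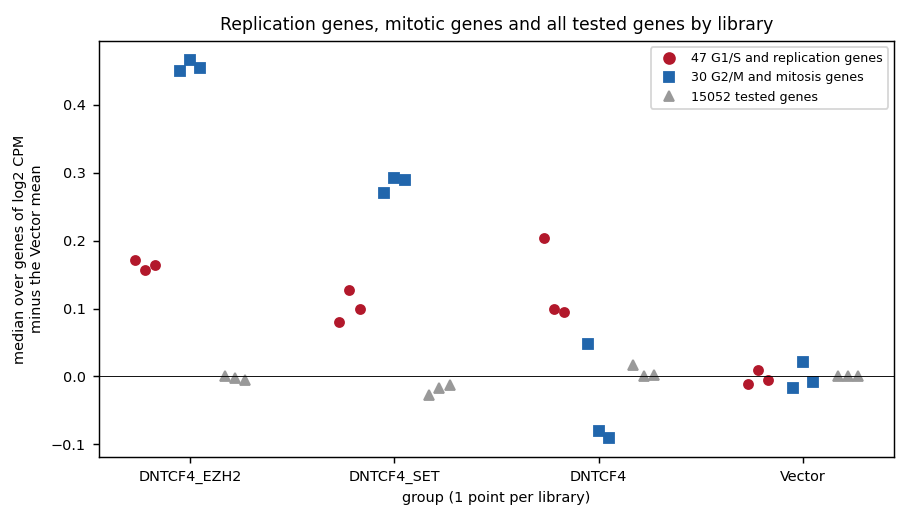
Median over genes of log2 CPM minus the Vector mean (y axis) for each library of the 4 groups (x axis), for the 47 members, 30 G2/M and mitosis genes and the 15052 tested genes; each point is 1 library. The members lie at 0.08 to 0.20 in the 9 libraries with DNTCF4, whereas the mitotic genes lie at 0.45 to 0.47 in DNTCF4_EZH2, 0.27 to 0.29 in DNTCF4_SET and -0.09 to 0.05 in DNTCF4.

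The plot of medians by library sets the members beside the mitotic genes. Member medians were 0.17, 0.16 and 0.16 in DNTCF4_EZH2, 0.08, 0.13 and 0.10 in DNTCF4_SET, 0.20, 0.10 and 0.10 in DNTCF4 and -0.01, 0.01 and -0.01 in Vector. DNTCF4 replicate 1, the library that stood apart, had the highest of these, and it was the highest of its group for 22 members, the lowest for 15 and between the others for 10. The summed level of the 47 genes was 2810.3, 2788 and 2815 CPM in DNTCF4_EZH2, 2651, 2685 and 2639 CPM in DNTCF4_SET, 2832, 2792 and 2751 CPM in DNTCF4 and 2518.5, 2558 and 2523 CPM in Vector. Each of the 9 libraries with DNTCF4 was above each Vector library, the DNTCF4_EZH2 sums lay within the range of DNTCF4, and the DNTCF4_SET sums lay below both. The summed level of the 30 mitotic genes was 2671, 2668 and 2672 CPM in DNTCF4_EZH2, 2346, 2362 and 2352 CPM in DNTCF4_SET, 1948, 1816 and 1832.5 CPM in DNTCF4 and 1928, 1974.5 and 1956 CPM in Vector.

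There were 12 members called in none of the 6 comparisons: Orc6, Gins1, Gins4, Pcna, Rfc3, Pola1, Prim1, Pole2, Lig1, Rpa1, Tipin and Tyms. They include the clamp, the catalytic subunit of polymerase alpha and the ligase. Their standard errors differ widely, so a missing call does not show equal levels. Between DNTCF4 and Vector the standard error was 0.046 for Pcna, at 209, 189.8 and 184 CPM in DNTCF4 and 183, 184 and 174 CPM in Vector, and 0.12 for Pole2, the second subunit of polymerase epsilon, at 9.26, 6.98 and 6.78 CPM in DNTCF4 and 6.97, 6.88 and 7.46 CPM in Vector. DNTCF4 replicate 1 was the high library of both.

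Other genes of the same pathways moved in both directions, as did the tested genes at large. Of these, 29.5% were called higher and 28% lower in DNTCF4 against Vector. Between DNTCF4 and Vector, 6 of 16 other origin licensing and firing genes were called higher and 2 lower, with a median log2 fold change of 0.16. Dbf4, the activator of the kinase that fires origins, was at 189.8, 160.5 and 165 CPM in DNTCF4 and 295, 284 and 298 CPM in Vector (log2 fold change -0.77, SE 0.051, adjusted p = 5.57e-09). Recql4, a helicase that takes part in origin firing, was at 54.7, 64.4 and 60.9 CPM in DNTCF4 and 44.5, 46.7 and 44.5 CPM in Vector, in the opposite direction (log2 fold change 0.41, SE 0.055, adjusted p = 1.46e-05). Of 16 other fork proteins 4 were higher and 7 lower, of 18 other nucleotide and chromatin genes 5 and 5, and of 20 replication stress and recombination genes 7 and 2. Of 25 other G1/S regulators tested, 7 were higher and 8 lower. Ccnd1, the gene of cyclin D1, was at 171, 161 and 162 CPM in DNTCF4 and 325, 341 and 343 CPM in Vector, and its kinase partner gene Cdk6 at 175, 164 and 165 CPM and 329, 334 and 346 CPM. Both were separate between the groups and lower in DNTCF4, 2.04-fold for Ccnd1 (log2 fold change -1.03, SE 0.039, adjusted p = 6.34e-12) and 2.00-fold for Cdk6 (adjusted p = 2.25e-12). The kinase inhibitor genes Cdkn1a and Cdkn2c were higher, by 1.14 (adjusted p = 2.80e-09) and 0.61 (adjusted p = 9.78e-10). Of the 30 mitotic genes 5 were higher and 10 lower, with a median of -0.05.

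In DNTCF4_EZH2 against DNTCF4, other origin genes were called higher in 2 and lower in 4 of 16 cases, other fork proteins higher in 3, other nucleotide and chromatin genes higher in 1 and lower in 4 of 18, replication stress genes higher in 4 and lower in 4 of 20, and other G1/S regulators higher in 8 and lower in 2 of 25. Recql4, at 41.6, 43.1 and 43.2 CPM in DNTCF4_EZH2 and 54.7 to 64.4 CPM in DNTCF4, was lower (log2 fold change -0.50, SE 0.055, adjusted p = 9.63e-06). Ccna2, the cyclin A2 gene, was higher (log2 fold change 0.52, SE 0.039, adjusted p = 1.37e-07), as was Chtf18, a subunit of an alternative clamp loader (log2 fold change 0.48, SE 0.070, adjusted p = 1.27e-04). In DNTCF4_SET against the same DNTCF4 libraries, other origin genes were lower in 7 of 16 cases and other nucleotide and chromatin genes lower in 7 of 18. Other fork proteins were higher in 2 of 16, replication stress genes higher in 1 and lower in 4 of 20, and other G1/S regulators higher in 4 and lower in 4 of 25. Recql4 was at 40.3, 37.5 and 38.2 CPM in DNTCF4_SET and lower there too (log2 fold change -0.64, SE 0.056, adjusted p = 1.01e-06), and Ccna2 was higher (log2 fold change 0.35, SE 0.040, adjusted p = 1.38e-05). Background shares of called genes for these comparisons are those given above.

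Several members share exon bases with another gene, 17 of the 47 in all, so that without strand reads of overlapping genes cannot be told apart. For Chaf1a the shared part with Ubxn6 was 52.5% of its exon bases, for Rfc5 with Wsb2 10.7%, for Rfc4 with Eif4a2 12.6% and for Cdc45 with Ufd1 5.96%. Pcna-ps2, a pseudogene of the clamp gene, had 13 to 27 counts in a library, against at least 4145 for Pcna.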

How the data were processed

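Expected counts, RSEM's estimates of reads per gene that share reads mapping to several genes among them, were deposited by the authors for 12 libraries and are not normalised. Per the submitters' processing notes, build GRCm38 was used with STAR 2.7.8a and RSEM 1.3.3, and cutadapt 2.3, FastQC 0.11.8 and DESeq2 are also named. The sources used here do not give their settings or any use of strand. The deposited counts were whole, so rounding changed nothing. The authors also deposited rlog values, regularised log2 counts, which served in 1 alternative. Groups and replicate numbers came from the sample titles. Genes were kept by filterByExpr (minimum count 10, minimum total 15), scaled by TMM and tested with edgeR 4.0.16 in R 4.3.3, in 1 fit over 12 libraries with a mean per group (8 residual degrees of freedom, biological coefficient of variation 5.17%), by the two-sided quasi-likelihood test with Benjamini-Hochberg adjustment over 15052 genes and a threshold of 0.05. Replicate libraries differed by more than sampling noise (chi-square per degree of freedom 2.59 to 20.7), so each was kept.

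The 47 members and the pathway and marker lists were chosen with earlier results of these data known. Values in every library are given for up to 10 called members per comparison with the largest change and a mean of at least 1 CPM in the higher group, for members called in no comparison by name, and for up to 4 members of other lists with the smallest p. Some further members, called or not, are given by library as well, such as Mcm7 and Pola1 between DNTCF4 and Vector. Library totals were 23597545 to 33999982 counts, so that 3 counts, the floor for a gene at 0, are 0.0882 to 0.127 CPM; such limits cover counting error only. Exon lengths and gene positions came from the GENCODE vM21 annotation of GRCm38, and promoter sequences from RefSeq (GRCm38.p6). Alternatives changed 1 choice at a time: a Wald test in DESeq2 1.42.0, size factors of DESeq2 in place of TMM, the rlog values tested by limma 3.58.1, a replicate block, a test against a fold of 1.2, every gene kept whatever its count, a fit of the 6 libraries of a comparison alone, and each library left out in turn.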

Additional observations from a re-analysis of the deposited data

How the results depend on the processing

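The count of called members moved with the setting. Shares of all tested genes were given above for the main fit only. Counts at other settings and at an unadjusted p thus have no such share beside them. For DNTCF4 against Vector, 24 were called, 21 to 24 with a library left out and 8 in a test against a fold of 1.2. For DNTCF4_EZH2 against DNTCF4, 7 were called, 5 to 10 with a library left out and 0 against a fold of 1.2, with 13 at an unadjusted p under 0.05 without that minimum and 7 by DESeq2. For DNTCF4_SET against DNTCF4, 8 were called, 4 to 14 with a library left out, 4 over the 6 libraries alone and 0 against a fold of 1.2, with 16 at an unadjusted p under 0.05 and 6 by DESeq2. For DNTCF4_EZH2 against Vector, 27 were called, 23 to 27 with a library left out and 5 against a fold of 1.2. For DNTCF4_SET against Vector, 25 were called, 22 to 27 with a library left out and 2 against a fold of 1.2. Between DNTCF4_EZH2 and DNTCF4_SET, 4 were called, 0 to 2 with a library left out, 2 with DESeq2 size factors, 2 with limma on rlog values, 13 over the 6 libraries alone and 0 against a fold of 1.2, with 16 at an unadjusted p under 0.05 and 3 by DESeq2. The causes of these shifts were not tested, except that the last setting asks for a larger change and a left-out library leaves fewer samples.

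Same-numbered libraries did not deviate together: over 18 pairs, correlations of their deviations from the group means ran from -0.091 to 0.151, so the numbers were not taken to pair the samples. With the replicate number as a block, 23, 7, 7, 26, 26 and 3 members were called in DNTCF4 against Vector, DNTCF4_EZH2 against DNTCF4, DNTCF4_SET against DNTCF4, DNTCF4_EZH2 against Vector, DNTCF4_SET against Vector and DNTCF4_EZH2 against DNTCF4_SET. Over all settings, a tally was made only for the called members with the largest changes in each comparison, chosen in these same data. Their log2 fold changes kept direction and call in 543 cases, kept the direction but missed the threshold in 94, and did not reverse. Other called members given by library, such as Gins3 and Pold1 between DNTCF4 and Vector, were outside this tally. Both Gins3 and Pold1 lost that call at several settings. Each member had 93 counts or more in each library, and the smallest called change was 1.08-fold, for E2f1.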
